A study of Mus musculus with 14 samples.

Results

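Imprinted genes are expressed mainly from the chromosome inherited from 1 parent. The 41 genes described here were taken as a named list of mouse imprinted genes, out of 55413 genes annotated on the assembled chromosomes of GRCm38 (GENCODE M21). They lie in 18 imprinted clusters or single loci. Of these genes, 17 are known as maternally expressed, 23 as paternally expressed, and Gnas gives transcripts of both kinds. These assignments are background knowledge, and the allele used in the cells studied here was not measured. For each gene, sites of the H3K27me3 list were collected that overlapped the ± 1 kb window around any of its transcription start sites (TSSs) or its gene body, and the share of these bases covered by sites was measured. The rule that names them uses no measured value, but earlier results of these data were known when the genes were listed.

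The sites came from chromatin immunoprecipitation with sequencing (ChIP-seq) in immortalized mouse embryonic fibroblasts (iMEF). In these cells exon 4 of the endogenous Ash2l had been deleted by Cre-ER, and FKBP-HA2-ASH2L, a tagged human protein delivered by lentivirus, took its place. The cells were grown from clones, NG3 in the study's account of the histone marks, and carried this genotype with and without treatment, although the labels call untreated cells WT. dTAG-13 links the FKBP tag to an E3 ubiquitin ligase and causes degradation of the fusion protein. There were 12 H3K27me3 libraries in 6 groups of 2, namely cells without dTAG and cells treated for 30 min, 2 h, 4 h, 8 h or 16 h, and 2 input libraries, of which 1 had 16 h of dTAG and 1 had none. The experiment asked how the mark behaves once ASH2L, a subunit of the H3K4 methyltransferase complexes, is gone. The list brings together the sites of all samples and gives the positions, and nothing else, of 153983 sites. No site carries a value per library, so treated and untreated cells were not compared, and the depth behind a site is unknown. The 2 parental alleles are not told apart either.

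H3K27me3 is set by Polycomb repressive complex 2 and is typical of silent developmental genes. Most imprinted clusters are controlled by a region whose DNA methylation is laid down in the egg or the sperm and kept afterwards on that parent's chromosome. In several clusters the unmethylated copy drives a long non-coding RNA, such as Kcnq1ot1 or Airn, and neighbouring genes on the same chromosome are kept silent, in part with Polycomb. The mark is therefore known from imprinted genes both on the silent allele and, in cells that do not use the gene, on both alleles.

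H3K27me3 sites lay within 1 kb of a TSS of 23 of the 41 imprinted genes (56.1%, 95% Wilson interval 41.04 to 70.11%). The same was true of 24.1% of all annotated genes and of 31.5% of the 21938 protein-coding genes. Because the list holds 36 protein-coding genes, the closer figure is 22 of these 36 (61.1%, interval 44.9 to 75.2%) against 31.5%. Over the TSS windows and the gene body together, 29 of the 41 genes had a site (70.7%, interval 55.5 to 82.4%), against 33.9% of all genes. Of the protein-coding members 26 of 36 had one, against 48.0% of protein-coding genes. These intervals cover counting error only. Genes with more annotated TSSs have more windows in which a site can fall, and the sets were not matched for the number of TSSs. Neighbouring imprinted genes share sites and are not independent of each other.

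Wide sites were common. A site of at least 2 kb lay within 1 kb of a TSS of 16 of the 36 protein-coding imprinted genes (44.4%, interval 29.5 to 60.4%), against 16.1% of protein-coding genes. No non-coding member had one. A site of at least 5 kb overlapped 11 of these 36 genes, against 10.3% of protein-coding genes. In all, 215 sites were assigned to the 41 genes. Their median width was 651 bp, compared with 455 bp for the 153878 sites on the assembled chromosomes, and 7.44% of them reached 5 kb, compared with 3.30% of all sites. A wider site is more likely to overlap a gene region, and the sites over other genes were not compared.

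The covered share differed widely between genes. Sites covered 5.93% of the genome, and 19 of the 41 genes exceeded this share. The upper quartile of the covered share was 2.81% over all genes and 5.81% over protein-coding genes, both below this value. The median over the members was 5.03%, with quartiles of 0 and 39.8%, whereas the median over all genes was 0. Pooled over their bases, the imprinted genes were covered to 10.1% and all genes to 7.07%. The genes fell into 4 sets. In 16 a wide site lay within 1 kb of a TSS, 7 had only narrower sites there, 6 had sites in the gene body alone, and 12 had none. Gene length enters the count over the gene body. Among members under 10 kb, 9 of 12 had a site, against 23.1% of all genes of that length. Of those from 10 to 50 kb it was 7 of 13, against 47.4%, and of those of 50 kb or more 13 of 16, against 71.9%.

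**Figure D1:**
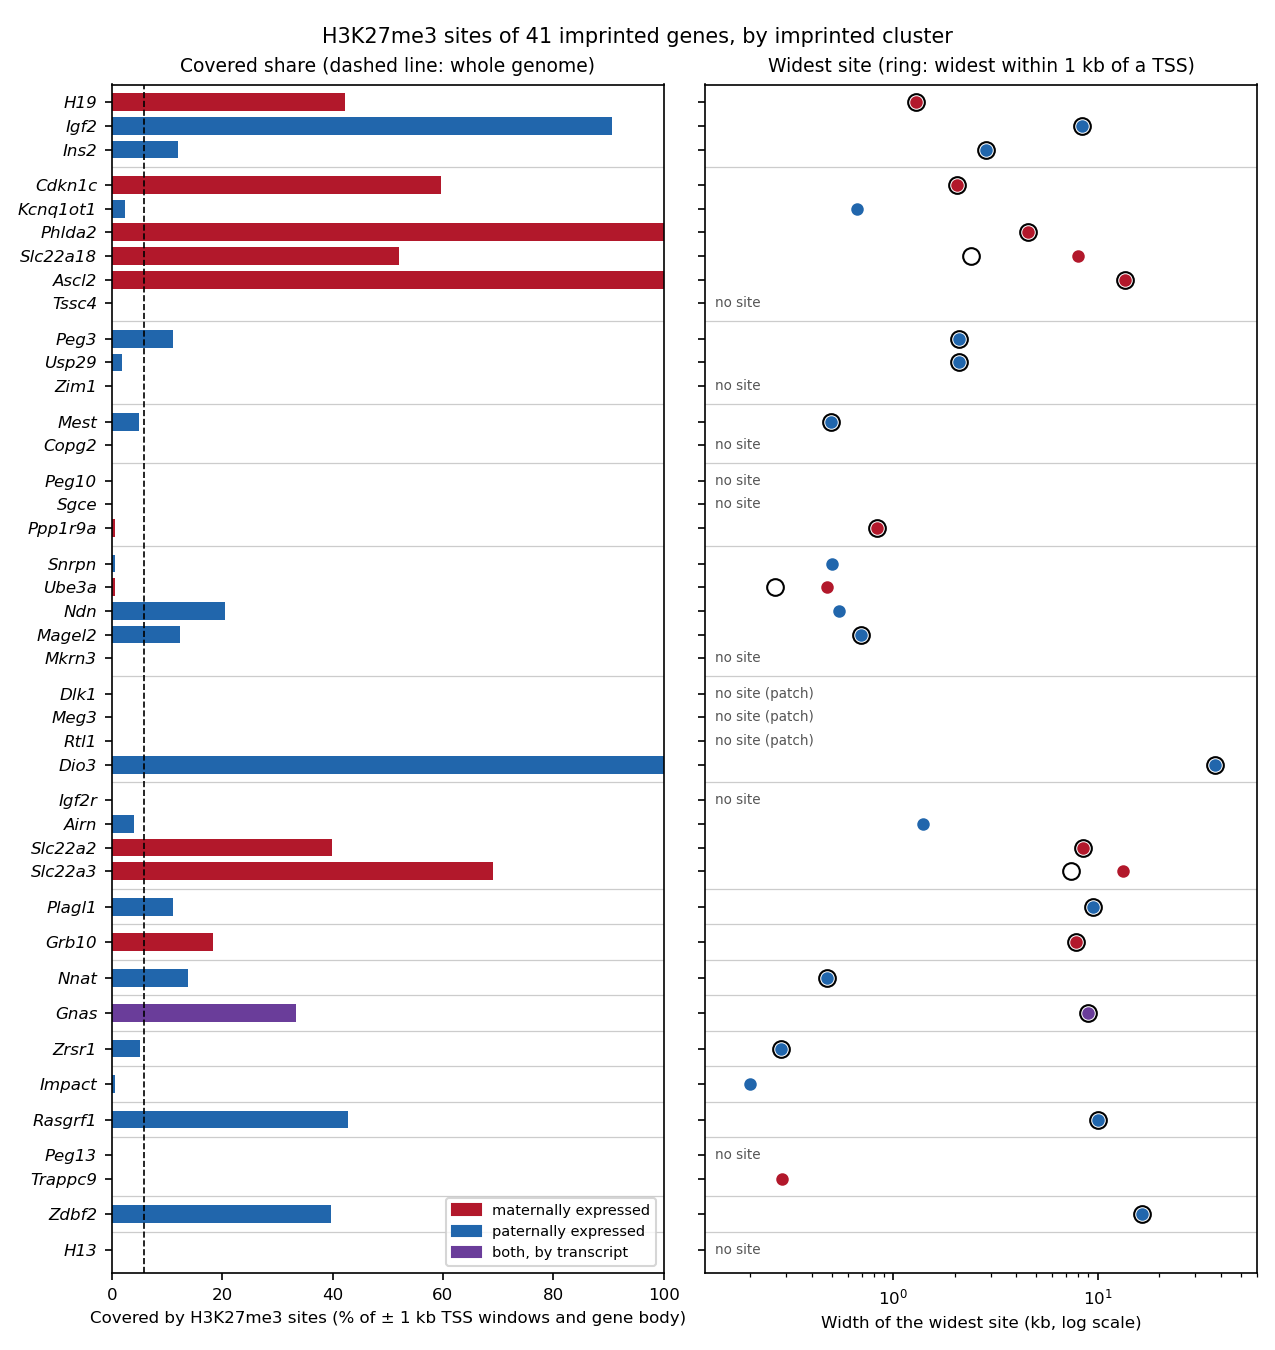
Covered share (left, % of the ± 1 kb TSS windows and gene body, dashed line at the genome's 5.93%) and width of the widest site (right, kb, log scale) for the 41 imprinted genes, ordered by cluster and coloured by the parental allele known to be expressed. Filled points give the widest site over the whole gene and rings the widest within 1 kb of a TSS, and Dio3, Ascl2 and Phlda2 are covered to 100% while 12 genes have no site, 3 of them in a stretch that an assembly patch repeats.

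The start regions of 6 genes are shown, chosen by cluster for a wide site over the start or for a start without a site. Those of Dio3, Ascl2, Slc22a2 and Peg3 lie under wide sites, whereas those of Kcnq1ot1 and Igf2r lie under none. Each stretch ends just before the first annotated exon, was taken from RefSeq (GRCm38.p6), reads 5′ to 3′ along the gene and has its CpG dinucleotides in capitals.
Dio3: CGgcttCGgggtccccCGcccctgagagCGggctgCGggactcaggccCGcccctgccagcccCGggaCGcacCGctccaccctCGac
Ascl2: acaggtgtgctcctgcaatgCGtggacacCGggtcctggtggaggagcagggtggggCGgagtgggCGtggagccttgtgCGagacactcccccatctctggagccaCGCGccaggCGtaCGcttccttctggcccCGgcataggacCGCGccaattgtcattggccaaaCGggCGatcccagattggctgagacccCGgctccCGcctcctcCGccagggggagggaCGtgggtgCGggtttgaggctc
Kcnq1ot1: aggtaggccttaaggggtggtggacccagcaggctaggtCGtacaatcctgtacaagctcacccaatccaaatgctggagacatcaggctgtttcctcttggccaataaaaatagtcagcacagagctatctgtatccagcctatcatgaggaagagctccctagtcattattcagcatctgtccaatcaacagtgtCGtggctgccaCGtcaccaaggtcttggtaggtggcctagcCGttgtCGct
Slc22a2: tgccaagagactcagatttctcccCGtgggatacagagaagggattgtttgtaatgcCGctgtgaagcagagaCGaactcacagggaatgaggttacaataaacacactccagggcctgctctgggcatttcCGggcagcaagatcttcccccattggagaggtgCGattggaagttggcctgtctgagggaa
Igf2r: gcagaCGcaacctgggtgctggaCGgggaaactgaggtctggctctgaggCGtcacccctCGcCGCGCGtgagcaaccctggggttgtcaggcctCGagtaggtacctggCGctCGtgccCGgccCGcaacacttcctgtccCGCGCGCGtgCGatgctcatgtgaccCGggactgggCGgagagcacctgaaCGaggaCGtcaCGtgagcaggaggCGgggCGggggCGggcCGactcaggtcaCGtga
Peg3: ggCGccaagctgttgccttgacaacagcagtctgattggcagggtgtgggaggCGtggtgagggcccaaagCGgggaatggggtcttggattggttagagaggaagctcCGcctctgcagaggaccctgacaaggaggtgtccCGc

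The Dio3 stretch (chr12:110278980-110279067, plus strand) had 10 CpGs in 88 bases, all inside the site. That of Ascl2 (chr7:142969265-142969514, minus strand) had 19 in 250 bases and was also covered throughout. In contrast, Igf2r (chr17:12769707-12769956, minus strand), with 27 CpGs in 250 bases the highest number of the 6, had no covered base. Slc22a2 (chr17:12583939-12584131, plus strand) had 5 CpGs in 193 bases, and Peg3 (chr7:6730432-6730577, minus strand) 5 in 146 bases, and both were covered throughout. Kcnq1ot1 (chr7:143296550-143296797, minus strand) had 5 CpGs in 248 bases and no covered base. Covered and uncovered starts were thus found at both ends of the CpG range.

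Over all members, 20 of 41 had a CpG-rich start (GC content of at least 50% and observed to expected CpG of at least 0.6 in 500 bp on either side of the 5′ end). All 20 are protein-coding, and 13 of them had a site within 1 kb of a TSS (interval 43.3 to 81.9%), beside 25.5% of 9742 CpG-rich protein-coding genes. Of the 16 CpG-poor protein-coding members 9 had one (interval 33.2 to 76.9%), beside 36.3% of 12196 CpG-poor protein-coding genes. The intervals of the 2 sets of members overlap widely, and no difference between them was shown. The class describes the 5′ end alone, whereas the site may lie at any TSS, so the 2 can refer to different starts. Grb10, for example, was classed as CpG-poor, while a covered downstream promoter of it had 45 CpGs in 300 bases. The hexamer TGCCGC, which the imprinting factor ZFP57 is known to bind when methylated, was searched on both strands in the RefSeq promoters (250 bases before to 50 after the start). Promoters were found for 32 of the 41 genes. At least 1 promoter of 11 of them (34.4%) held the hexamer, compared with 13.1% of 27025 genes. The members' promoters also had more CpGs, with a median of 15 per 300 bases compared with 7. Of the 6 stretches printed above only that of Slc22a2 contained it.

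In the H19/Igf2 cluster on chromosome 7, H3K27me3 sites covered 47.9% of the 168 kb between the outer ends of its genes, the highest share of the 18 clusters. H19, a maternally expressed non-coding RNA (chr7:142575529-142578143), had 2 sites at its TSSs, the wider one of 1285 bp ending 67 bp upstream of the most upstream TSS. Igf2, the paternally expressed fetal growth factor (chr7:142650766-142666816), was covered to 90.7% by 4 sites. The widest of these had 8352 bp, 34.5% of it exonic and 65.5% intronic, and each of its 9 TSSs lay inside a site. Between H19 and Igf2, in the stretch that contains their shared enhancer-blocking element, sites covered 74.2% of 72.6 kb. Ins2, an insulin gene (chr7:142678656-142743381), is annotated with a long body and was covered to 11.96%. Its 7 TSSs at the insulin coding exons lay inside a site of 2824 bp, while the 2 TSSs far upstream had none within 1 kb.

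In the Kcnq1ot1 cluster on the same chromosome 4 of the 5 listed genes around the non-coding RNA carried wide sites, and the RNA gene itself only narrow ones. Ascl2, a transcription factor needed in the placenta (chr7:142966829-142969264), lay wholly under a site of 13648 bp, of which 82.2% was outside the gene. Phlda2, a growth inhibitor of the placenta (chr7:143501545-143503150), lay wholly under a site of 4531 bp. Cdkn1c, which encodes the cell cycle inhibitor p57 (chr7:143458339-143461050), was covered to 59.6%, with a site of 2039 bp that reached from 174 bp to 2212 bp downstream of its 5′ end. Slc22a18, a transporter gene (chr7:143473736-143499334), was covered to 52.1%. Its widest site of 7967 bp lay within the gene, 95.5% of it intronic, and a site of 2403 bp ended 789 bp upstream of the 5′ end. All 4 are maternally expressed.

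Kcnq1ot1, the paternally expressed antisense RNA (chr7:143203458-143296549), had 5 sites of at most 667 bp and a covered share of 2.33%. The nearest site was 4638 bp from its TSS. Kcnq1, the potassium channel gene in which it lies, was covered to 25.3% outside the antisense unit and to 2.35% within it. The 162 kb between the TSS of Kcnq1ot1 and the 3′ end of Cdkn1c were covered to 30.5%. Tssc4 (chr7:143069249-143071093), also a maternally expressed gene, had no site, the nearest being 5053 bp away. It lay in a stretch of 81.5 kb without any site, the longest of this cluster.

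The Igf2r cluster on chromosome 17 also held parts with many sites and parts with few or none. Slc22a3, an organic cation transporter (chr17:12418960-12507704), was covered to 69.1% by 33 sites, of which the widest, with 13280 bp, was wholly intronic and another of 7409 bp spanned the TSS. Slc22a2, a further transporter of this family (chr17:12584132-12628488), was covered to 39.9% by 18 sites, with 8446 bp at the TSS. From the 3′ end of Slc22a3 to that of Slc22a2, sites covered 53.0% of 210 kb, and between Slc22a2 and Igf2r 46.0% of 53.9 kb. Igf2r, which encodes the receptor that removes IGF2 (chr17:12682406-12769664), had no site over its whole length, and the nearest one was 29724 bp from a TSS. Airn, the paternal antisense RNA (chr17:12741311-12860136), had no site over the 28.4 kb it shares with Igf2r and 7 sites further downstream, where they covered 5.46%. The stretch without a site measured 152 kb (chr17:12671556-12823224) and held all of Igf2r and the start of Airn. Slc22a2, Slc22a3 and Igf2r are all maternally expressed, but only the first 2, which lie beyond the 3′ end of Igf2r, carried sites.

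The Dlk1/Dio3 cluster on chromosome 12 held the widest site of any member. Dio3, which encodes the deiodinase that inactivates thyroid hormone (chr12:110279068-110281097), lay wholly within a site of 37542 bp, of which 5.41% was exon of Dio3 and the rest outside the gene. Dlk1 (chr12:109452823-109463336), a paternally expressed regulator of growth and adipocyte formation, the maternal non-coding RNA Meg3 (chr12:109541001-109571726) and the retroelement-derived Rtl1 (chr12:109589193-109600330) had no site. These 3 genes lie in a stretch of 316 kb (chr12:109373903-109689534) that a patch sequence of GRCm38.p6 repeats with 1 differing base in 315585 aligned. A read from such a stretch has 2 equally good positions where patches are part of the reference. The list had 1 site reaching into the stretch, covering 0.0089% of it, compared with 77 and 94 sites and 17.5% and 22.9% in the stretches of equal length before and after it. The part of the patch in the absence of sites was not tested, and no absence of H3K27me3 at Dlk1, Meg3 and Rtl1 can be read from the list. Beyond the stretch, sites covered 26.5% of the 592 kb up to the end of Dio3.

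**Figure D2:**
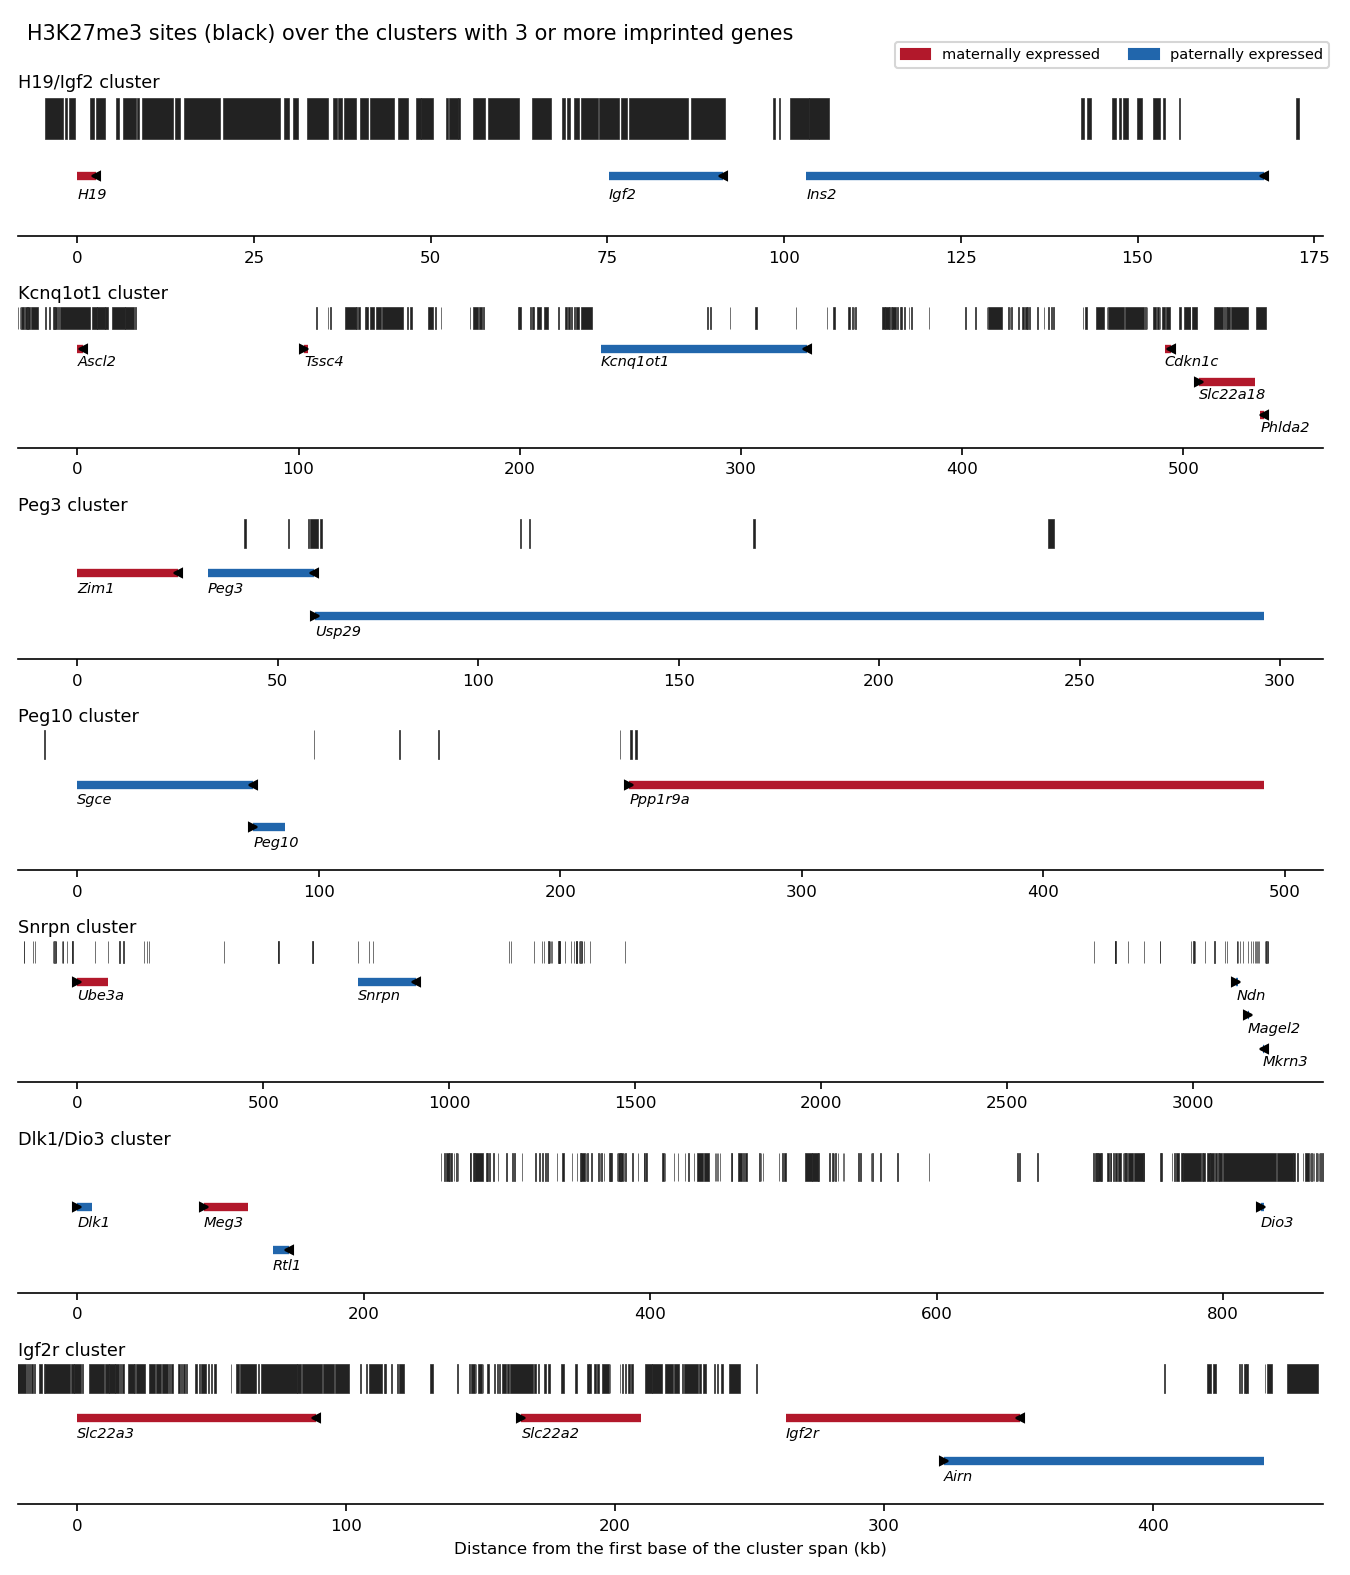
H3K27me3 sites (black, with a minimum line width so that the narrowest remain visible) and the listed genes of the 7 clusters with 3 or more of them, against the distance in kb from the first base of the cluster span. Arrowheads stand at the 5′ ends and point along transcription, and colours give the expressed allele. The sites over Slc22a3 and Slc22a2 stop before Igf2r, those over Kcnq1 thin out along Kcnq1ot1, and the Peg3, Peg10 and Snrpn clusters have few sites.

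The remaining clusters with 3 or more members carried little of the mark. In the Peg3 cluster on chromosome 7, 9 sites covered 2.00% of 296 kb. Peg3, a zinc finger gene (chr7:6703892-6730431), and Usp29, a ubiquitin protease gene (chr7:6730578-6967219), start back to back and shared a site of 2099 bp (chr7:6729207-6731305) over both starts. The covered share was 11.1% for Peg3 and 1.94% for the longer Usp29. Zim1, a maternally expressed zinc finger gene (chr7:6671269-6696450), had no site, the nearest being 16408 bp from a TSS.

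In the Snrpn cluster, which corresponds to the Prader-Willi and Angelman region of humans, sites covered 0.91% of 3.19 Mb, and a stretch of 1260 kb had none. Of its 3 parts, from Ube3a to Snrpn, from there to Ndn and from Ndn to Mkrn3, the last alone exceeded the genome's share, with 13 sites over 6.46% of 73.6 kb. Ndn, a gene of the MAGE family (chr7:62346569-62350262), had 2 sites of 544 and 419 bp and a share of 20.5%. They began 1687 bp downstream of the GENCODE start and therefore missed its window, but the narrower one overlapped 23.7% of the RefSeq promoter, which lies further downstream. Magel2 (chr7:62377010-62381640), of the same family, had 693 bp at its TSS and a share of 12.3%. Mkrn3 (chr7:62417593-62420139) had none, the nearest being 2986 bp away. Snrpn, a splicing factor gene expressed from the paternal allele (chr7:59982495-60140219), had 3 sites of at most 499 bp. Ube3a, the ubiquitin ligase gene (chr7:59228750-59311536), had 1 site of 264 bp near an internal TSS and 1 of 474 bp at its 3′ end.

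In the Peg10 cluster on chromosome 6, the back-to-back pair Peg10 (chr6:4747306-4760517) and Sgce (chr6:4674350-4747207) had no site, the nearest being 24816 bp from a TSS of Peg10. Ppp1r9a, which encodes a neuronal actin-binding protein and is maternally expressed (chr6:4902917-5165661), had 2 sites near its 5′ end of 836 and 715 bp, or 0.59% of its bases.

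The single loci showed that 1 gene can hold marked and unmarked starts. Gnas, which encodes the stimulatory G protein subunit and several imprinted transcripts (chr2:174284320-174346744), was covered to 33.5% by 18 sites. A site of 8949 bp spanned the 3 most upstream TSSs, those of the maternal Nesp transcripts, where the antisense gene Nespas also lies. The next TSS, 13539 bp downstream, lay inside a site of 3508 bp. None of the 10 TSSs between 43250 and 45967 bp downstream, which include those of the G protein subunit itself, had a site within 1 kb. Plagl1, a zinc finger gene (chr10:13060504-13131694), had a site of 9491 bp over its most upstream TSS, whereas the 8 TSSs about 30 kb downstream were at least 16268 bp from a site. Grb10, an inhibitor of growth factor signalling (chr11:11930508-12038683), had 7840 bp over its 2 most upstream TSSs and narrower sites, up to 1116 bp, at the next 3. The 4 TSSs further downstream had none.

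Rasgrf1, a Ras activator of neurons (chr9:89909908-90026977), was covered to 42.8% by 41 sites, the most of any member, with 10063 bp over the start. Zdbf2, a paternally expressed zinc finger gene (chr1:63273265-63314576), had 16525 bp at its start, 83.7% of it upstream of the gene. The second widest site of all members was this one, although with sites closer than 1 kb joined it measured 41368 bp and the widest of Slc22a3 41893 bp. The RefSeq start of the long Zdbf2 transcript, at chr1:63200108-63200407 with its promoter, was not covered.

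The other genes had narrow sites or none. Nnat, a small membrane protein gene (chr2:157560078-157562522), had 475 bp near its most downstream TSS, and Zrsr1, a splicing factor gene (chr11:22972005-22976496), 282 bp. At Mest, a paternally expressed gene of the hydrolase fold family (chr6:30723547-30748465), a site of 496 bp ended 390 bp short of the main group of 3 TSSs. Copg2, on the opposite strand (chr6:30747554-30896794), had none, the nearest being 20753 bp away. Impact (chr18:12955852-12992950) had 1 site of 200 bp in an intron, the smallest width in the list. Trappc9, a trafficking gene (chr15:72589620-73061204), had 2 intronic sites of at most 286 bp, or 0.10% of its bases. Peg13, a non-coding RNA within Trappc9 (chr15:72805600-72810324), had its nearest site at 181835 bp, the farthest of all members. H13, which encodes a signal peptide peptidase (chr2:152669461-152708670), had none, the nearest being 41725 bp from a TSS.

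Compared with their surroundings, 8 of the 18 cluster spans were covered more than the 250 kb on each side, and 11 exceeded the genome's 5.93%. The Dlk1/Dio3 span, with 18.9% against 19.8%, is not among the 8. The repeated stretch lies partly in this span and partly in the flank before it. After the stretch the span was covered to 26.5%, but the flank was not measured without it. The part of the stretch in this order was not tested. In the H19/Igf2 cluster 47.9% of the span stood against 18.8% of the flanks, in the Igf2r cluster 31.9% against 11.1%, in the Kcnq1ot1 cluster 27.4% against 11.8%, and at Rasgrf1 42.3% against 14.4%. The order was reversed at Nnat, with 19.4% against 35.8%, and at H13, with 0 against 18.2%. The Peg3, Snrpn, Peg10 and Impact loci were low both inside and outside. Flanks can contain further imprinted genes.

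**Figure D3:**
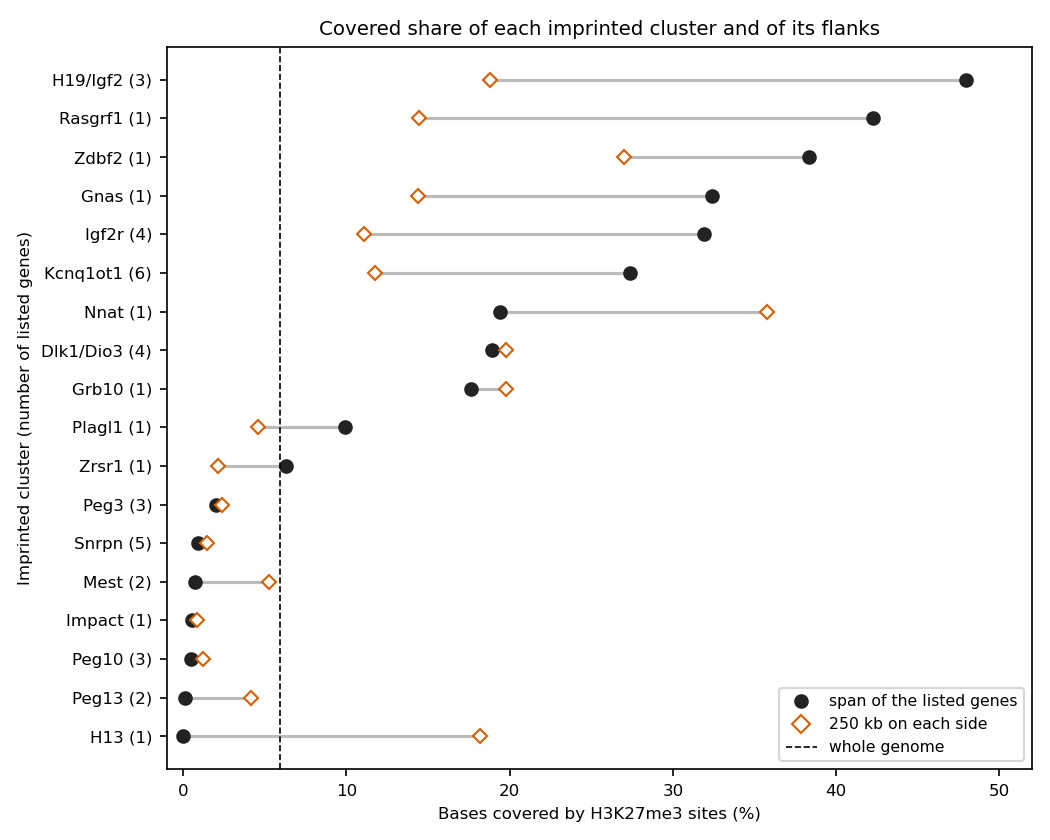
Bases covered by H3K27me3 sites (%) in the span of the listed genes of each imprinted locus (filled circles) and in the 250 kb on each side (open diamonds), with the number of listed genes in brackets and the genome's 5.93% as a dashed line. The H19/Igf2, Rasgrf1, Zdbf2, Gnas, Igf2r and Kcnq1ot1 loci lie to the right of their flanks, while Nnat and H13 lie to the left.

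By the allele known to be expressed, which was not measured in these cells, the counts were as follows. Of 17 maternally expressed genes 10 had a site within 1 kb of a TSS (58.8%, interval 36.0 to 78.4%), and of 23 paternally expressed genes 12 (52.2%, interval 33.0 to 70.8%). The share was 31.5% over all protein-coding genes and 24.1% over all genes. Over the gene the counts were 11 of 17 and 17 of 23, beside 48.0% of protein-coding genes and 33.9% of all genes. The median covered share was 0.65% for maternally and 5.03% for paternally expressed genes. With sites of at least 500 bp only these medians were 0.59% and 1.38%, and with sites of at least 1 kb only both were 0. The upper quartiles had the opposite order, with 52.1% and 13.05%. Of the maternally expressed genes 8 had shares from 18.4 to 100% and 9 had at most 0.65%. The intervals overlap broadly, and members of a cluster share sites, so no difference between the alleles was shown.

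Around the 5′ ends, bases of the 2 kb just downstream were covered to 35.6% for the 41 genes, compared with 16.5% for all protein-coding genes. For maternally expressed genes it was 39.0%, and for paternally expressed ones 30.2%. The maternal share was the higher one in each bin from 28 kb upstream to 34 kb downstream, and the order changed further out. Windows of neighbouring members overlap, so the same sites can enter more than once.

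**Figure D4:**
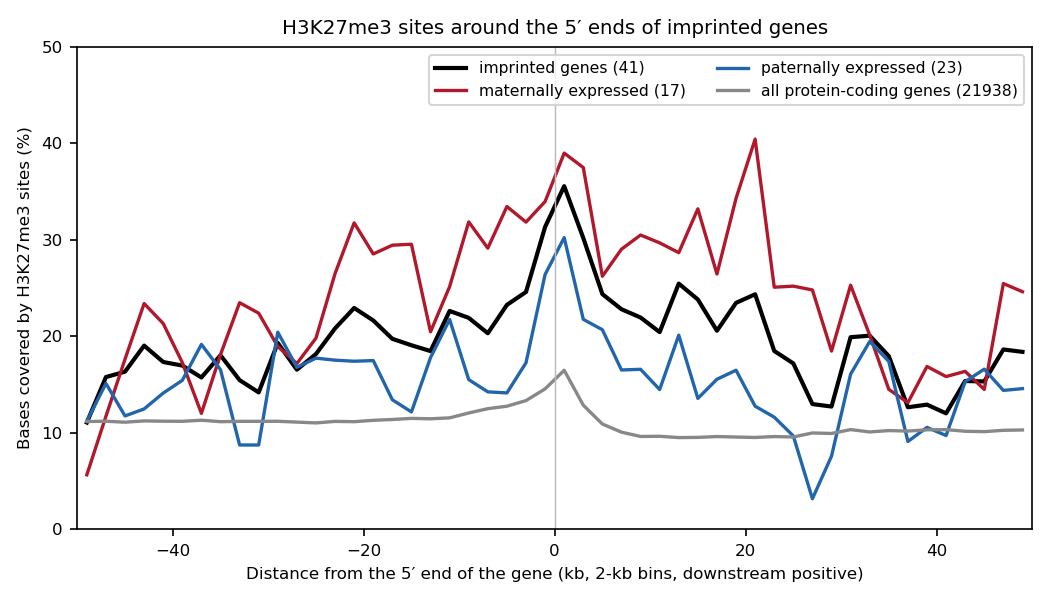
Bases covered by H3K27me3 sites (%) in 2-kb bins against the distance from the 5′ end of the gene (kb) for all 41 imprinted genes (black), 17 maternally and 23 paternally expressed genes, and 21938 protein-coding genes (grey). The black line peaks at 35.6% just downstream of the start and the grey line at 16.5%. The red (maternal) line lies above the blue (paternal) line from 28 kb upstream to 34 kb downstream, and the 2 cross further out.

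A start in a maternally methylated control region was assigned to 13 of the genes. Gnas and Grb10 also have such a region at 1 of several promoters, as Plagl1 does, but were left among the other 28. Whether further genes of the 28, such as Zdbf2, have one was not examined. A site lay within 1 kb of a TSS of 6 of the 13 (46.2%, interval 23.2 to 70.9%) and of 17 of the 28 (60.7%, interval 42.4 to 76.4%). This holds for 31.5% of protein-coding genes and 24.1% of all genes. A site of at least 2 kb was found there for 3 and 13 genes, beside 16.1% of protein-coding genes and 10.2% of all genes. The 3 were Peg3 and Usp29, which share their site, and Plagl1, whose site lies at the upstream TSS and not at the methylated one. The covered share of the 13 genes was at most 13.8%, at Nnat, a limit that depends on the assignment. It would be 33.5% with Gnas and Grb10 counted among them, and 39.8% with Zdbf2 as well. The intervals overlap, and the grouping was drawn from knowledge of the loci and not from the data.

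By function, the groups were small, and 16.1% of all protein-coding genes and 10.2% of all genes have a site of at least 2 kb within 1 kb of a TSS. The 3 transporter genes all had wide sites within 1 kb of a TSS, with covered shares of 39.9 to 69.1% (interval of the count 43.9 to 100%). At Slc22a18, however, no TSS lay inside a site. Of the 7 genes of growth control, 5 had a wide site there (Igf2, Ins2, Cdkn1c, Phlda2 and Grb10, interval 35.9 to 91.8%), and Igf2r and Dlk1, the latter in the repeated stretch, had none. Of the 4 transcription factor genes, Ascl2, Peg3 and Plagl1 had one (interval 30.1 to 95.4%). Among the 13 genes with other roles 2 had one (15.4%, interval 4.3 to 42.2%). The counts were 2 of 2 for signalling genes, 1 of 3 for ubiquitin enzyme genes and 0 of 2 for the MAGE family. The 5 non-coding RNAs, of which Meg3 lies in the repeated stretch, had none of 2 kb (upper limit 43.4%), and only H19 had a site within 1 kb of a TSS. Both retroelement-derived genes, Peg10 and Rtl1, were without a site, Rtl1 in the repeated stretch.

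A further 40 imprinted genes outside the list gave a lower count. A site was found within 1 kb of a TSS for 18 of them (45.0%, interval 30.7 to 60.2%) and over the gene for 21 (52.5%), beside 31.5% and 48.0% of protein-coding genes. The count over the gene is thus close to the background, and the background at the TSS lies just inside the interval. The widest were 11.1 kb at Begain, near Dlk1, 9.99 kb at Phactr2, near Plagl1, and 9.41 kb at the start of Kcnq1. Rian, one of those without a site, lies in the repeated stretch on chromosome 12. For 6 genes known to be imprinted through maternal H3K27me3 and not through germline DNA methylation, a site lay at a TSS of 3. It measured 3441 bp at Smoc1, 3238 bp at Sfmbt2 and 310 bp at Xist, while Jade1, Slc38a4 and Gab1 had only sites of at most 229 bp elsewhere in the gene.

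Markers of the cells were looked up in the same list. Of 12 fibroblast markers, such as Col1a1, Vim and Pdgfra, 4 had a site within 1 kb of a TSS (33.3%), which is about the share of all protein-coding genes, 31.5%. None of these reached 2 kb, the widest being 534 bp at Prrx1, and 16.1% of protein-coding genes have a site of that width there. Of 10 markers of other cell types 9 had one and 6 were of at least 2 kb, among them Pax6 with 30.4 kb and Cdx2 with 26.5 kb. Alb was the one without a site.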

How the data were processed

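The authors trimmed the reads of the 12 H3K27me3 and 2 input libraries, aligned them to mm10 (GRCm38.p6), merged replicates, brought libraries to the lowest coverage and called broad peaks. The submitters' processing notes name BWA, SAMtools and MACS2. Program versions and the peak threshold are not given in the sources used here. The deposited file gives the sequence name, start and end of each site and no score, count or other value, so its positions are the only measurement. It had 0 columns that belonged to single libraries. The paper states a planned minimum of raw reads per ChIP sample, but the depth reached by each library is unknown. The tests on values per library that had been planned could not be run.

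Positions were read as 0-based with the end excluded, since the smallest width was 200 bp, and are printed 1-based. The 105 sites on other sequences were left out. Genes and TSSs came from GENCODE M21, an earlier release than the study's, on the 21 assembled chromosomes. A gene's region was the union of ± 1 kb around each TSS and its body, and any overlap counted. Intervals are 95% Wilson intervals (SciPy 1.17.1, Python 3.11.15) and cover counting error only. All 74 patch sequences of the assembly were aligned to the cluster spans and 250 kb around them with minimap2 2.31-r1302, and alignments of at least 20 kb were kept. Overlap functions were tested on simulated regions.

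The genes, the further lists and the measures were chosen with earlier results of these data known. All 41 genes are accounted for, and those with the widest sites, the highest covered shares, no site, or in clusters of 3 or more were described in full. Sequences were shown for up to 6 genes by cluster, the widest site at a start and one start without. Alternatives were narrow sites left out, neighbouring sites joined, other windows, the 5′ end alone, the body alone, and, chosen after seeing the data, the 3 genes in the repeated stretch left out. The expressed allele, the roles and the methylated promoters are background knowledge and were not measured.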

Additional observations from a re-analysis of the deposited data

How the results depend on the processing

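The count of imprinted genes with a site within 1 kb of a TSS stayed between 17 and 25 of 41 under the 9 alternatives tried, with no change of over 1.5 times. It was 18 with the 5′ end of each gene alone, 21 with 500 bp and 25 with 2 kb on either side. The share of all genes under these settings was not computed, so these counts have no background beside them. The count over the gene fell from 29 to 22 with sites of at least 500 bp only, and to 18 with sites of at least 1 kb only, while the share of all genes fell from 33.9 to 21.7% and 16.3% and that of protein-coding genes from 48.0 to 30.7% and 24.1%. The median covered share of the genes, 5.03%, became 1.38% and 0 under these settings, and 8.10% without Dlk1, Meg3 and Rtl1, which was chosen after seeing the data. The median over the 18 cluster spans, 13.8%, became 4.90% and 4.43% without narrow sites and 22.3% with sites closer than 5 kb joined. These follow from the settings, which remove or add covered bases. Among protein-coding genes at large, the share with a site at a TSS fell from 31.5 to 24.2% and 20.1% under the same 2 width limits, and 18 and 16 of the 36 protein-coding imprinted genes had one. Joining at 1 kb moved the covered share of 0 genes by over 1.5 times, joining at 5 kb that of 13. The widest site moved by this much for 19 and 23 genes, for example at Dio3 from 37542 to 79407 bp and at Grb10 from 7840 to 34100 bp with the 1 kb setting, so printed widths depend on how the peaks were divided. No paired analysis was possible because the deposited sites have no measurement for any single library, and the alternatives planned for such values (other normalizations, filters, replicates left out) were not run for the same reason. The list has no replicates, and it cannot show whether a site was present in untreated cells, in treated cells or in both.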
